A study of Mus musculus with 12 samples.

Results

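The S100 genes described here are S100a1, S100a13, S100a16, S100b, S100a6 and S100a10, taken by symbol as 6 of 19 genes of an S100 family list and 6 of 78334 gene IDs in the count table. S100a1 was chosen by the measured difference between diabetes and control libraries, in which it had been called, and how the other 5 were picked is not recorded. The set was proposed with results of all groups known, so the treated groups may also have entered the choice. They were measured by bulk RNA sequencing of the hypothalamus, which governs feeding and energy balance, in male C57BL/6 mice. The curcumin group (n = 3) and the garlic group (n = 2) carried the same diabetes model as the diabetes group and received a daily gavage over 28 days. It held curcumin, a turmeric polyphenol, at 50 mg/kg, or aged garlic extract at 200 mg/kg. The diabetes group (n = 4) had received streptozotocin, a toxin of insulin-producing beta cells (70 mg/kg on postnatal day 2), ate a high-fat diet (60% of its energy as fat) for 8 weeks from 3 weeks of age, and was given the vehicle. The control group (n = 3) ate a standard diet and was given the vehicle, and no neonatal injection is described for it. The labels place the start of gavage at week 7 of the diet in one text and after 11 weeks in another, so the age at which treatment began is not settled here. Age at tissue collection is not stated, and every mouse that received streptozotocin also ate the high-fat diet, so their effects cannot be told apart. The labels do not say that each library came from a separate animal, and p-values therefore measure the spread between libraries, which may be partly technical.

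S100 proteins are small calcium sensors that carry a pair of EF-hand motifs and mostly work as dimers. When they bind calcium they expose a surface that docks onto other proteins, among them annexins, ion channels, cytoskeletal proteins and kinases. Several can also leave the cell and act on the receptor RAGE, encoded by Ager. In the brain, S100b is best known as a product of astrocytes and of ependymal and other glial cells, and S100a1, S100a6, S100a10 and S100a16 are found in neurons or glia depending on the region.

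All but S100b lie in the S100 cluster of mouse chromosome 3 and S100b lies on chromosome 10. In RefSeq on build GRCm38.p6, S100a13 (plus strand) and S100a1 (minus strand) stand head to head, with 104 bases between the starts used for their promoter windows. The letters of that shared stretch, and the 104 bases before the starts of S100a16, S100a6 and S100b, are shown so that the one start region that 2 of the genes share can be read beside 3 that are not shared. All are written 5′ to 3′ on the plus strand, and capitals mark the single match among 5 motifs in these stretches.
S100a13 and S100a1, between the starts, chr3:90514331-90514434: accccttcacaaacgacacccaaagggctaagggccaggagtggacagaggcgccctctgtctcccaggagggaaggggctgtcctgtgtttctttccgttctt
S100a16, chr3:90537150-90537253: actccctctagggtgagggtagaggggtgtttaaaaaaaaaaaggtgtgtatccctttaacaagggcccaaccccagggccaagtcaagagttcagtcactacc
S100a6, chr3:90612790-90612893: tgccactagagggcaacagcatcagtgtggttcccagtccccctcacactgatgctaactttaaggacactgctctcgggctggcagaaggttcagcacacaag
S100b, chr10:76253732-76253835: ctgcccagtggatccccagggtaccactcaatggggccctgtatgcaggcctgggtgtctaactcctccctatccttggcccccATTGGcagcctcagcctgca

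The motifs searched, on both strands and over the 250 bases before each start, were the CCAAT box (CCAAT), the TATA box (TATAAA), the GC box (GGGCGG), the AP-1 element (TGANTCA) and the E-box (CACGTG). The capitals in S100b are a CCAAT box read from the other strand. S100b had 2 CCAAT boxes in its 250 bases and S100a6 had 1, a motif present in 33.8% of 32851 RefSeq promoter windows. S100a1, S100a13 and the first start of S100a16 held 0 matches to any of the 5 motifs, whereas a second start of S100a16 held 1 GC box and 1 AP-1 element, found in 32.7% and 6.75% of windows. The TATA box and the E-box, in 12.4% and 6.02% of windows, had 0 matches before any of these starts. RefSeq entries matched 5 of the 6 genes, all but S100a10. The S100a1 and S100a13 gene spans share 98 bases on opposite strands. They thus reach past the starts used for the promoter windows, and the stretch printed between those starts lies at least partly inside an annotated gene span. Because the strand setting of the counting is not given, reads from the shared bases cannot be assigned to one of the pair with certainty. The sequences are from GRCm38.p6, whereas the counts were made on GRCm39, and no position was carried between the builds.

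All 12 libraries held between 12950017 and 30271706 counts assigned to genes. Reduced to the same depth, the curcumin libraries held 20917 to 29126 genes with a read, the garlic libraries 33125 to 34719, the diabetes libraries 20133 to 22515 and the control libraries 25766 to 33157. Summed markers of hypothalamic transcription factors, 18 genes of which 0 were at 0 throughout any group, were 160 to 297 CPM (counts relative to library totals, scaled between libraries) in curcumin, 253 to 354 in garlic, 346 to 374 in diabetes and 267 to 325 in control libraries. Diabetes replicate 4 and curcumin replicate 2 stood apart from the rest of their groups and were left out together in a refit. Control replicate 3, with a low sum of astrocyte markers given below, was kept in that refit. In diabetes replicate 4, 12 anterior pituitary markers summed to 881 CPM, against 15.9 to 22.3 in the other diabetes libraries, though Lhb, Pou1f1, Ghrhr and Gnrhr were at 0 in it. The 7 blood markers summed to 1755 CPM in that library. In curcumin replicate 2, 12 mature oligodendrocyte markers summed to 12212 CPM, and it had the highest S100b value of all 12 libraries. Its sums for astrocyte (7000 CPM), oligodendrocyte precursor (1218), endothelial and mural (886) and neuron markers (6017) were also the highest of all 12 libraries. That for tanycyte and ependymal markers, 218 CPM, was the lowest. The sum of 160 CPM for hypothalamic transcription factors, the lowest of all libraries, was also from curcumin replicate 2. Six6, Hmx2, Hmx3, Fezf1 and Bsx were at 0 in it. Curcumin replicates 1 and 3 had sums of 272 and 297 CPM. In bulk tissue, fewer cells of a type and less RNA per cell cannot be told apart.

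S100a1, S100b and S100a16 were the most abundant of the set, and they also traded places between groups. Per kilobase of the longest coding transcript, S100b led in the control libraries with 86.1 ± 25.9 CPM per kilobase (SD, n = 3), before S100a1 with 64.5 ± 15.1 and S100a16 with 57.4 ± 17.9. The library ranges of these 3 genes overlapped one another. S100a10 at 33.3 ± 8.45, S100a13 at 17.9 ± 1.70 and S100a6 at 13.7 ± 1.49 CPM per kilobase came next in control libraries, each below the range of the gene above it. In the diabetes libraries S100a1 came first with 228 ± 49.3 CPM per kilobase (SD, n = 4), above every S100b value, and S100b followed with 139 ± 23.3. The order below them stayed S100a16, S100a10, S100a13 and S100a6, with overlapping ranges between neighbours.

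S100a1, a calcium sensor that in heart and muscle tunes calcium release channels and pumps, was highest in the diabetes libraries. It reached 42.5, 86.7 and 69.3 CPM in the curcumin libraries and 32.9 and 46.3 CPM in the garlic libraries. The diabetes libraries held 152, 110, 167 and 189 CPM, and the control libraries 47.8, 51.2 and 32.0 CPM. The 4 diabetes libraries were the 4 highest of all 12, and no library of another group reached them. The means were 66.1 ± 22.3 CPM in curcumin (SD, n = 3), 39.6 ± 9.48 in garlic (n = 2), 154 ± 33.4 in diabetes (n = 4) and 43.7 ± 10.2 in control libraries (n = 3). By group mean the order was diabetes, curcumin, control and garlic, and the last 3 overlapped with their neighbours.

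**Figure D1:**
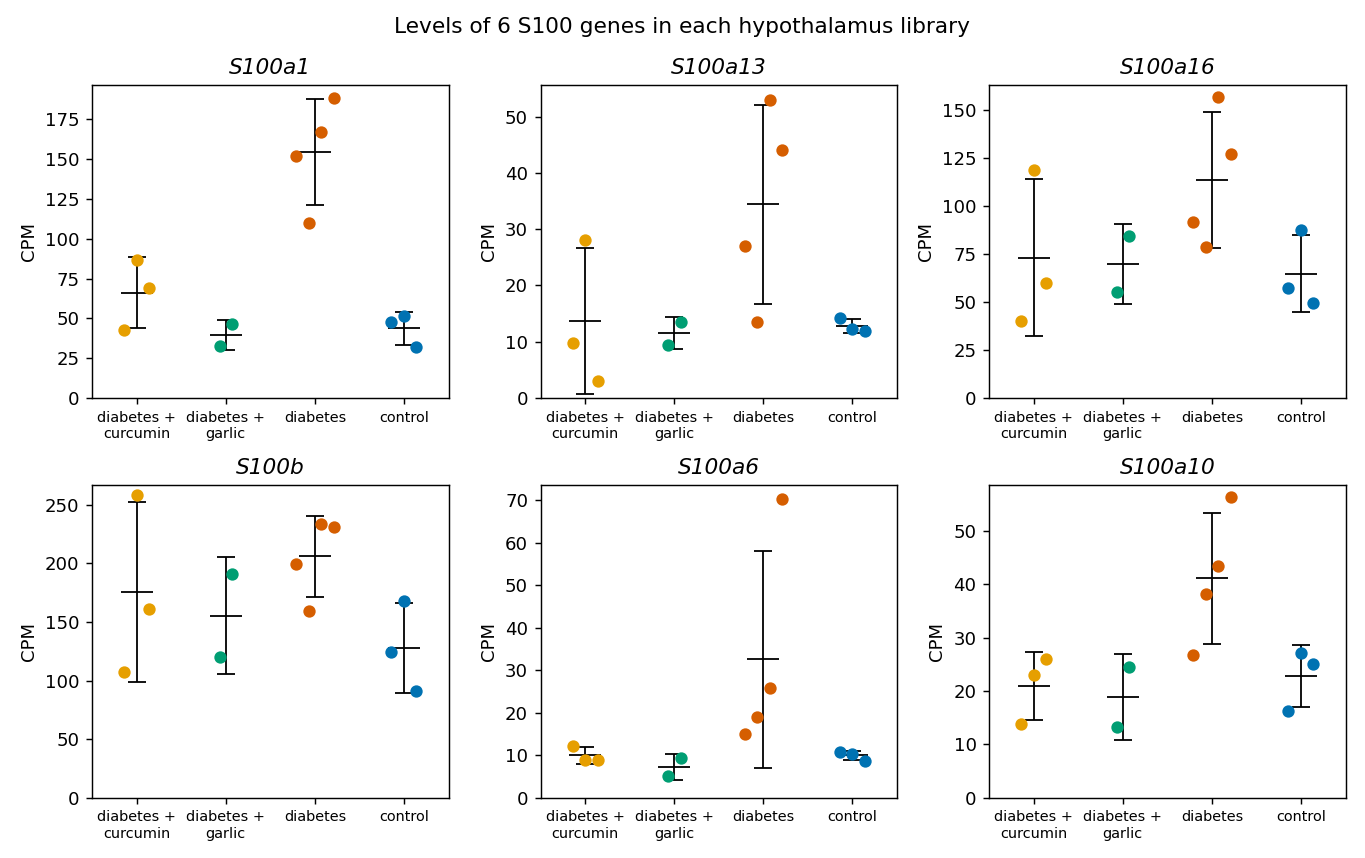
CPM of the 6 S100 genes in every library, a panel each with its own axis from 0, for diabetes with curcumin, diabetes with garlic, diabetes and control; points are libraries, long bars are group means and whiskers are 1 SD. The 4 diabetes points stand above all others for S100a1 and S100a6, whereas the highest S100b point is curcumin replicate 2, and for S100a16 the control and diabetes points overlap.

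S100a13, which takes part in the export of fibroblast growth factor 1 by a route outside the secretory pathway, was the most variable within groups. It had 9.80, 28.1 and 2.97 CPM in the curcumin libraries, the last of these from 60 counts, and 9.48 and 13.5 CPM in the garlic libraries. The diabetes libraries held 27.0, 13.5, 53.0 and 44.1 CPM, against 14.2, 12.2 and 12.0 CPM in the control libraries. The lowest diabetes library lay within the control range, so the groups overlapped. Its pooled within-group SD of log2 CPM was 0.93, against 0.40 for S100a1, its head-to-head neighbour. As a share of the mean, the SD of its CPM was 95.3% in curcumin libraries but 9.49% in control libraries. In diabetes libraries that share was 51.2%, against 78.7% for S100a6. In curcumin replicate 3, S100a13 was at its lowest of all libraries while S100a1 stood at 69.3 CPM.

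S100a16, the family member most widely expressed across tissues, and S100b, the astrocytic member that is used as a glial marker, were closely alike across libraries. S100a16 had 40.0, 119 and 60.0 CPM in curcumin and 55.1 and 84.4 CPM in garlic libraries. It had 91.6, 78.7, 157 and 127 CPM in diabetes libraries, against 57.1, 87.6 and 49.4 CPM in control libraries. The highest control library exceeded the lowest diabetes library. S100b had 107, 259 and 161 CPM in curcumin libraries, 120 and 191 CPM in garlic libraries, 199, 160, 234 and 231 CPM in diabetes libraries and 124, 168 and 91.3 CPM in control libraries. Control replicate 2 lay above diabetes replicate 2, and curcumin replicate 2 above every other library. Control replicate 3, the lowest library for both S100b and S100a1, also had the lowest sum of 12 astrocyte markers. That sum was 1620 CPM, against 3809 to 7000 CPM in the other 11 libraries. The part of this in the S100b and S100a1 values was not tested.

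S100a6, also called calcyclin, is a partner of the ubiquitin-ligase adaptor Cacybp and is abundant in dividing, ependymal and connective tissue cells. It had 12.2, 8.89 and 8.82 CPM in curcumin libraries and 5.14 and 9.37 CPM in garlic libraries. The diabetes libraries held 15.0, 18.9, 25.8 and 70.3 CPM, against 10.8, 10.4 and 8.75 CPM in control libraries. Every diabetes library was above all others, but diabetes replicate 4 was far above its own group. That library also had the highest sums of meningeal markers (310 CPM, against 40.2 to 165 CPM in the other diabetes libraries) and of the pituitary and blood markers given above. Without it, the fitted log2 fold change of diabetes against control was 0.99, in place of 1.70 with all libraries.

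S100a10 differs from its relatives in having lost calcium binding; it forms a tetramer with annexin A2 and carries membrane proteins such as channels and serotonin receptors to the cell surface. It had 13.8, 23.0 and 26.0 CPM in curcumin and 13.2 and 24.6 CPM in garlic libraries. It had 26.7, 38.1, 43.3 and 56.4 CPM in diabetes libraries, against 16.3, 27.2 and 24.98 CPM in control libraries. All curcumin and garlic libraries were below the lowest diabetes library, which lay just below the highest control library.

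Diabetes was set against control to describe the disease model. S100a1 was selected on this comparison, and the set was proposed with its results known, so the values are a description with no test. S100a1 averaged 154 CPM in diabetes and 43.7 CPM in control libraries, a log2 fold change of 1.82 ± 0.28 (SE), or 3.53-fold. S100a6 followed with 1.70 ± 0.46, S100a13 with 1.42 ± 0.55, S100a10 with 0.85 ± 0.32, S100a16 with 0.81 ± 0.34 and S100b with 0.69 ± 0.29. All 6 were higher in the diabetes mean, with a median log2 fold change of 1.14, against -0.07 over all 25562 genes tested. The call on which S100a1 was selected, at an adjusted p under 0.05, was met by 1 of the 6 and by 0.0156% of all genes, and nothing is read from it here. It was lost when any 1 of the 7 diabetes and control libraries was left out, without both libraries that stood apart, with a stricter filter on low counts, with the length trend removed, with a covariate for detected genes and with the replicate number as a block. In 2 of the 6, S100a1 and S100a6, the diabetes libraries lay wholly above the control libraries, as in 5.78% of all genes.

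Curcumin was compared with diabetes to ask how these genes stood after treatment. In edgeR's quasi-likelihood test with Benjamini-Hochberg adjustment over all genes, 0 of the 6 genes passed, where 0.0861% of all genes were called lower. The comparison uses the same diabetes libraries as the one with control, so high values in those libraries enter both. S100a1 averaged 66.1 CPM in curcumin and 154 CPM in diabetes libraries, a log2 fold change of -1.22 ± 0.27 with an adjusted p of 0.0677. S100a6 had -1.71 ± 0.46 (adjusted p 0.105), S100a13 -1.34 ± 0.54 (adjusted p 0.228) and S100a10 -0.97 ± 0.32 (adjusted p 0.163) in the same edgeR fit. S100a16, at -0.64 ± 0.34, and S100b, at -0.23 ± 0.29, had edgeR adjusted p-values of 0.345 and 0.768. The 95% interval of the S100b difference, -0.83 to 0.37 on the log2 scale, included 0. At an unadjusted p under 0.05, 4 of the 6 were lower, against 6.71% of all genes, and by DESeq2 2 passed the adjusted threshold, S100a1 and S100a6, against 2.66% of genes called lower.

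All 6 fold changes between curcumin and diabetes were negative, with a median of -1.10, against 0.07 over all genes. The curcumin libraries lay wholly below the diabetes libraries for 3 of the 6, S100a1, S100a6 and S100a10, as in 4.19% of all genes. For S100a13, S100a16 and S100b, curcumin replicate 2 lay inside or above the diabetes range. Without curcumin replicate 2, 3 of the 6 passed edgeR's test, where 4.82% of all genes were called lower: S100a1 at -1.42 (adjusted p 0.00683), S100a13 at -2.38 (adjusted p 0.0119) and S100a16 at -1.14 (adjusted p 0.0324). Leaving out curcumin replicate 2 kept the curcumin libraries that were lower in short transcripts. Coding genes with transcripts up to 1000 bases had a median log2 deviation from their means over 12 libraries of 0.27 in curcumin replicate 2. It was -1.11 and -0.47 in curcumin replicates 1 and 3. The part of this length trend, described below, in the refit was not tested. Without diabetes replicate 4, S100a6 had a log2 fold change of -0.997 in place of -1.71, with an edgeR adjusted p of 0.294.

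Garlic was compared with the same diabetes libraries, and with 2 garlic libraries 0 of the 6 genes passed, as 0% of all genes did in either direction by edgeR. S100a1 averaged 39.6 CPM in garlic and 154 CPM in diabetes libraries, a log2 fold change of -1.96 ± 0.33 (edgeR adjusted p 0.0892). It was selected on the difference between these same diabetes libraries and control, so their high values enter this comparison too. S100a6 had -2.16 ± 0.55 (edgeR adjusted p 0.205), S100a13 -1.58 ± 0.64 (adjusted p 0.400) and S100a10 -1.12 ± 0.38 (adjusted p 0.344). Without diabetes replicate 4, S100a6 had -1.46 (edgeR adjusted p 0.421). S100a16 was at -0.70 ± 0.39 and S100b at -0.41 ± 0.33, with edgeR adjusted p-values of 0.567 and 0.825. The median was -1.35, against 0.07 over all genes. At an unadjusted p under 0.05, 4 of the 6 were lower, against 4.03% of all genes, and by DESeq2 1 passed, S100a1, against 1.58% of genes called lower, while S100a6 was given no adjusted p. Both garlic libraries lay below all 4 diabetes libraries for 4 of the 6 genes, S100a1, S100a13, S100a6 and S100a10, as in 7.52% of all genes; for S100a13 the gap was small, with 13.48 CPM in the higher garlic library and 13.52 CPM in the lowest diabetes library. Without garlic replicate 2, S100a1 had a log2 fold change of -2.23, from garlic replicate 1, the lower of the garlic libraries at 32.9 CPM. A single library shows no spread within its group, so no test result is given for that fit.

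**Figure D2:**
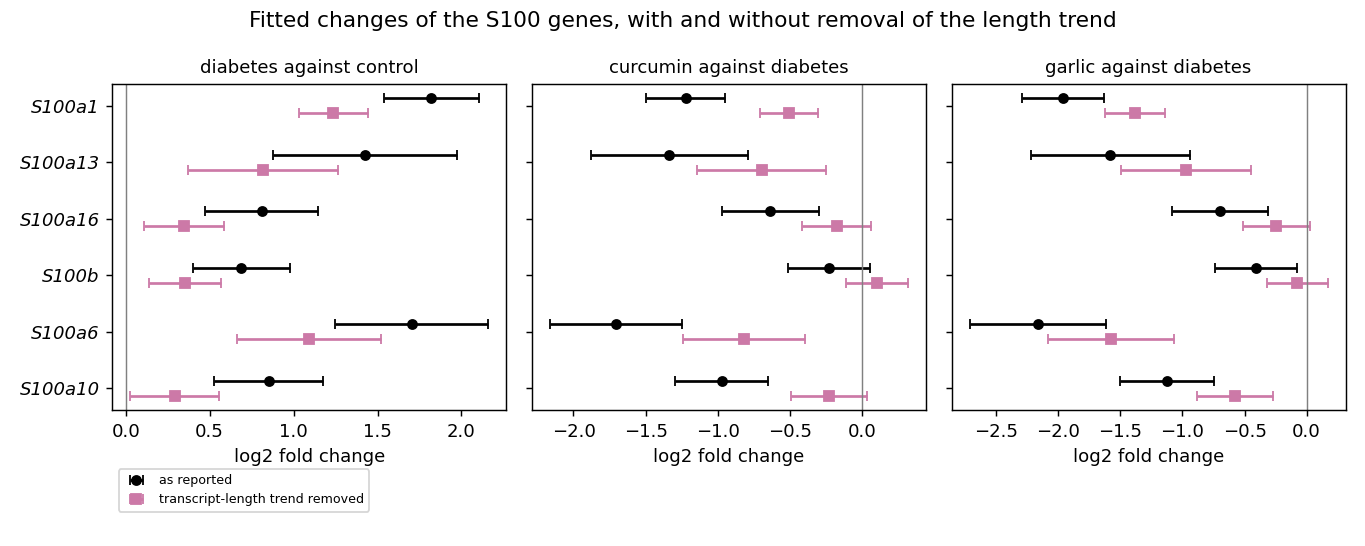
Fitted log2 fold changes of the 6 genes with 1 SE, for diabetes against control, curcumin against diabetes and garlic against diabetes; black circles are the values reported and pink squares the same fit after the trend with transcript length was removed. All circles lie above 0 in the first panel and below 0 in the other two, and every square lies nearer to 0 than its circle, with S100b under curcumin just past it.

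The comparisons that leave out the diabetes libraries gave smaller median changes. By group mean, S100a1 was still higher in curcumin than in control or garlic libraries. For curcumin against control 0 of 6 genes passed, with edgeR adjusted p-values of 1 for all, as 0% of all genes did. At an unadjusted p under 0.05 there was 1 of the 6, S100a1, against 2.34% of all genes, and DESeq2 called 0. None of the 6 was separated between curcumin and control, where 2.82% of all genes lay wholly higher and 5.84% wholly lower. For garlic against control 0 of 6 passed by edgeR, as 0% of all genes did, with 0 at an unadjusted p under 0.05 (0.11% of all genes) and 0 by DESeq2. None was separated between garlic and control, where 6.65% of all genes lay wholly higher and 6.11% wholly lower. The medians of the 6 genes were 0.13 for curcumin against control and -0.15 for garlic against control. S100a1 averaged 66.1 CPM in curcumin and 43.7 CPM in control libraries, a log2 fold change of 0.60 ± 0.29 whose 95% interval ran from 0.00017 to 1.20. In garlic it averaged 39.6 CPM, against 43.7 CPM in control libraries, a log2 fold change of -0.14 ± 0.32 (95% interval -0.81 to 0.53). A p that misses the threshold does not show that treated and control levels were alike, and for S100a13 the interval for curcumin against control ran from -1.09 to 1.27.

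Curcumin was also set directly against garlic, where again 0 of 6 passed, as 0% of all genes did, and all edgeR adjusted p-values were 1. At an unadjusted p under 0.05 there was 1, S100a1, against 1.6% of all genes, and DESeq2 called 0. None of the 6 was separated, where 4.21% of all genes lay wholly higher and 9.91% wholly lower in curcumin. S100a1 averaged 66.1 CPM in curcumin and 39.6 CPM in garlic libraries, a log2 fold change of 0.74 ± 0.33 (95% interval 0.06 to 1.42). The other 5 genes ranged from 0.06 for S100a16 to 0.46 for S100a6. The 2 agents were given at different doses, 50 and 200 mg/kg, so the values stand side by side and do not rank the agents.

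S100a1 and S100b can be set against each other within a library, which removes the scaling between libraries. The ratio of S100a1 to S100b, both per kilobase, was 0.87, 0.74 and 0.94 in curcumin libraries and 0.60 and 0.53 in garlic libraries. It was 1.67, 1.50, 1.57 and 1.79 in diabetes libraries, against 0.84, 0.67 and 0.77 in control libraries. All 4 diabetes libraries were above 1 and all 8 others below it. The mean ratio was 0.85 ± 0.11 in curcumin (SD, n = 3), 0.57 ± 0.05 in garlic (n = 2), 1.63 ± 0.12 in diabetes (n = 4) and 0.76 ± 0.09 in control libraries (n = 3). Curcumin replicate 2, which had the highest S100b level, and diabetes replicate 4, which had the pituitary markers, each lay with its own group in this ratio. The ratio was formed after the levels had been seen, with a gene selected on diabetes against control, and is given with no test. It still carries the trend with transcript length described below. Among coding genes of at least 10 CPM, the median log2 fold change of diabetes against control was 0.82 for transcripts up to 1000 bases. It was 0.38 for 1001 to 2000 bases. S100a1, with 677 bases, is in the first class and S100b, with 1484 bases, in the second. The part of length in the ratio was not tested.

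**Figure D3:**
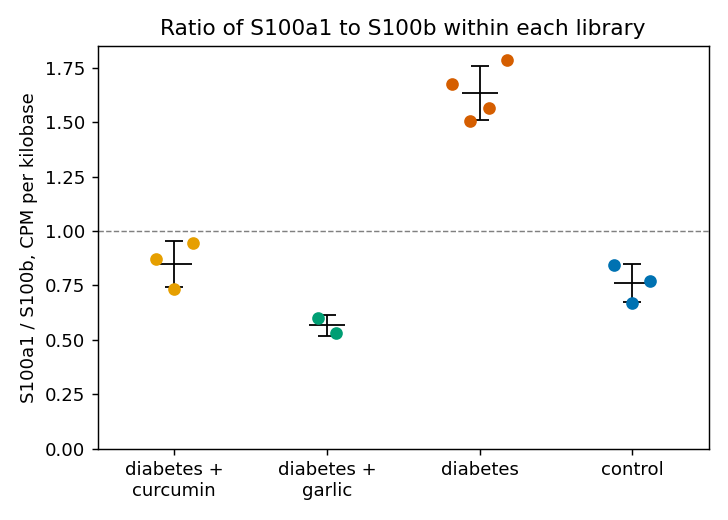
Ratio of S100a1 to S100b, each as CPM per kilobase of transcript, in every library of the curcumin, garlic, diabetes and control groups; points are libraries, long bars group means, whiskers 1 SD, and the dashed line marks a ratio of 1. The diabetes libraries sit between 1.50 and 1.79 and all others between 0.53 and 0.94. The trend with transcript length was not removed from the ratio.

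Transcript length moved with the same groups as the S100 genes. Among coding genes of at least 10 CPM, the 420 with transcripts up to 1000 bases had a median log2 fold change of 0.82 for diabetes against control, and 95.7% of them were positive. The median was 0.38 for 1001 to 2000 bases and -0.31 for transcripts over 4000 bases. For curcumin against diabetes the shortest class had -0.95 and the longest 0.37, and for garlic against diabetes -0.85 and 0.33. The S100 transcripts are short: 677 bases for S100a1, 685 for S100a10, 715 for S100a13, 731 for S100a6, 1127 for S100a16 and 1484 for S100b. Labels or files give no cause for the length trend, and its part in the S100 values was not tested beyond the refit below.

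The place of each S100 gene within its own length class varied with the comparison. For diabetes against control, on which S100a1 was selected, its log2 fold change was above 98.3% of the short class, S100a6 above 97.6% and S100a13 above 92.6%, while S100a10 was near the middle at 53.6%. In their longer class S100a16 was above 86.1% and S100b above 78.3% of genes. For curcumin against diabetes 26.7% of the short class lay below S100a1, 20.5% below S100a13, 7.14% below S100a6 and 46.2% below S100a10. In the longer class 31.0% lay below S100a16 and 69.4% below S100b. For garlic against diabetes 2.86% of the short class lay below S100a1, 6.43% below S100a13, 2.14% below S100a6 and 29.3% below S100a10. In the longer class 24.1% lay below S100a16 and 52.2% below S100b. A refit with the length trend removed gave S100a1 1.24 for diabetes against control, -0.51 for curcumin against diabetes (edgeR adjusted p 0.298) and -1.38 for garlic against diabetes (edgeR adjusted p 0.0768). S100a10 came to 0.29, -0.23 and -0.58 in those 3 comparisons, and S100b to 0.35, 0.10 and -0.07. The medians of the 6 genes became 0.59 for diabetes against control, -0.37 for curcumin against diabetes and -0.77 for garlic against diabetes. In comparisons without the diabetes libraries, some values grew in this refit. S100a1 had 0.73 for curcumin against control, in place of 0.60, and 0.88 for curcumin against garlic, in place of 0.74. Neither passed edgeR's test. Before the refit S100a1 was above 97.4% and 96.4% of the short class in these comparisons. The refit medians of the 6 genes were 0.22 and 0.31 there, and -0.15 for garlic against control.

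**Figure D4:**
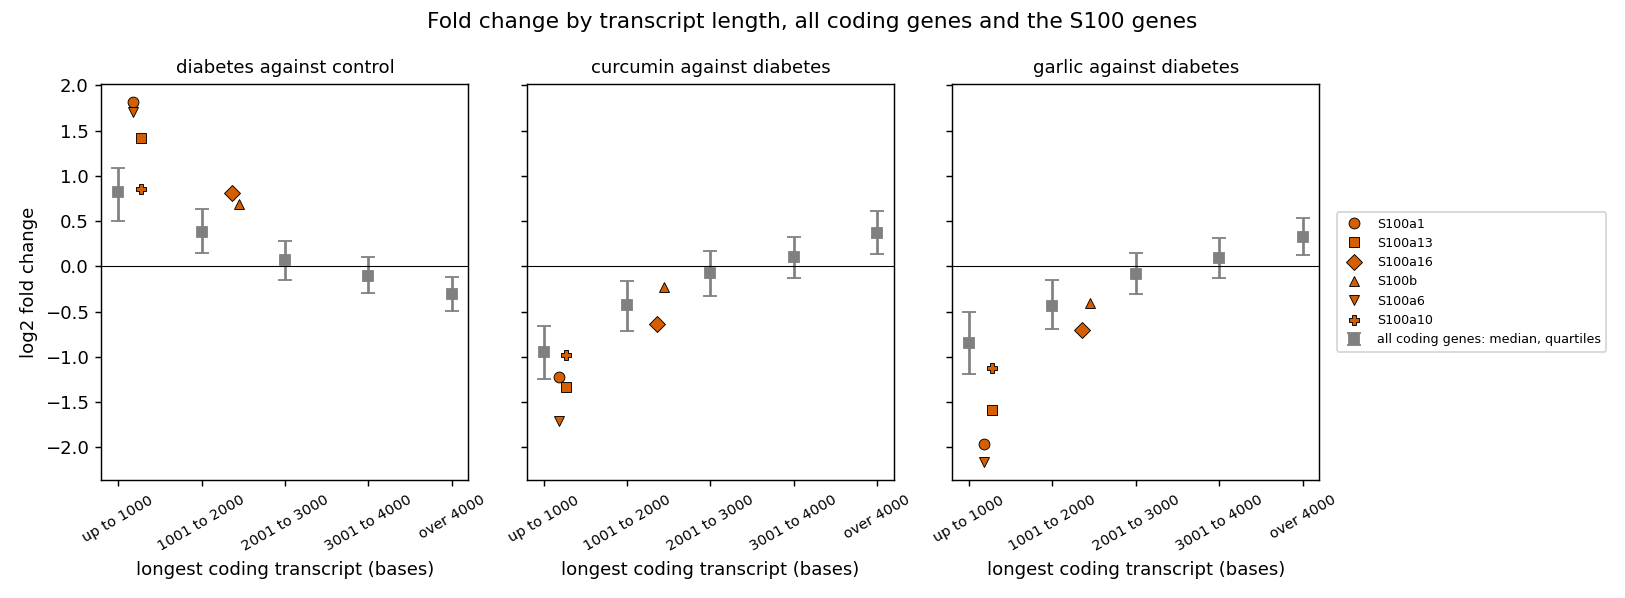
Log2 fold change against class of longest coding transcript in bases, for diabetes against control, curcumin against diabetes and garlic against diabetes; grey squares and bars are the median and quartiles of all coding genes of at least 10 CPM in the class, and orange symbols are the 6 S100 genes in their own class, shifted sideways for reading. The class medians run from 0.82 to -0.31 in the first panel and from -0.95 to 0.37 in the second, and S100a1, S100a6 and S100a13 lie beyond the upper quartile of the short class in the first panel.

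Markers of cells that can hold S100 genes were read beside them. The 14 tanycyte and ependymal markers had 0 at 0 throughout a group. They summed to 218 to 365 CPM in curcumin and 255 to 332 in garlic libraries. Their sums were 463 to 782 CPM in diabetes and 319 to 342 in control libraries, so that the diabetes libraries were the highest 4. The list did not rise as a whole. For diabetes against control, 7 of the 14 had a positive log2 fold change, the median was 0.11 and 0 were called. Of these 14 markers, 2 passed edgeR's test as lower in curcumin than in diabetes libraries, where 0.0861% of all genes did; they were Tppp3 and Fam183b, named after their values were seen. The 11 microglial markers, of which 0 were at 0 throughout a group, summed to 347 to 397 CPM in curcumin, 331 to 404 in garlic, 356 to 576 in diabetes and 315 to 389 in control libraries. The 12 astrocyte markers, with 0 at 0 throughout a group, overlapped between all groups, with 4424 to 7000 CPM in curcumin, 4326 to 5302 in garlic, 3809 to 5366 in diabetes and 1620 to 5239 in control libraries. The 11 meningeal markers summed to 47.4 to 114 CPM in curcumin, 48.1 to 48.9 in garlic, 40.2 to 310 in diabetes and 41.3 to 122 in control libraries, with Igf2 at 0 in all 4 diabetes libraries. The 11 markers of the posterior and intermediate pituitary and of folliculostellate cells had 0 at 0 throughout a group. They summed to 321 to 431 CPM in curcumin and 354 to 395 in garlic libraries. Their sums were 531 to 1473 CPM in diabetes and 381 to 457 in control libraries, so the diabetes libraries were again the highest 4. For diabetes against control, only 7 of these 11 had a positive log2 fold change, the median was 0.30 and 0 were called. The 12 neuron markers, with 0 at 0 throughout a group, summed to 3454 to 6017 CPM in curcumin, 3790 to 4398 in garlic, 3210 to 3604 in diabetes and 3986 to 4262 in control libraries, with every diabetes library below all garlic and control libraries. The 7 blood markers summed to 122 to 504 CPM in curcumin, 115 to 154 in garlic, 264 to 1755 in diabetes and 87.5 to 196 in control libraries, with at most 2 at 0 throughout a group. The part of these cells in the S100 values was not tested.

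Along chromosome 3 the S100 cluster was read unevenly. Of 15 S100 genes there, 5 belong to the set described. S100a16 and S100a6 are separated by 4 genes, S100a3, S100a2, S100a4 and S100a5, whose totals over the 12 libraries were at most 86 reads, whereas S100a16 had 19568 and S100a6 had 3963. S100a14, between S100a13 and S100a16, had 10 reads in all. The 6 genes had 40666 reads for S100b, 20246 for S100a1, 6497 for S100a10 and 4588 for S100a13 over all libraries.

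**Figure D5:**
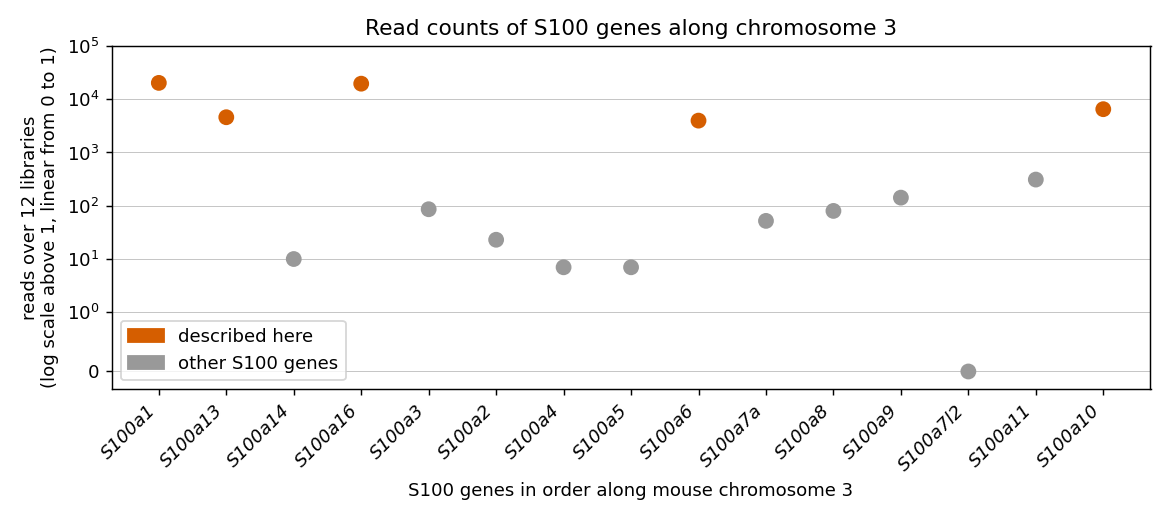
Reads summed over 12 libraries for the S100 genes of mouse chromosome 3, in their order along the chromosome and without distances, on a log axis above 1 that is linear from 0 to 1; orange points are genes described here and grey points other S100 genes. The 5 described genes lie between 3963 and 20246 reads, and no other gene of the cluster exceeds 310.

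The remaining family members were near the floor. Of the 19 listed genes 12 passed the filter on low counts, the 6 described and S100a3, S100a7a, S100a8, S100a9, S100a11 and S100pbp, and the 7 that did not were S100a2, S100a4, S100a5, S100a14, S100a7l2, S100g and S100z. Of the other 6 that passed, 0 were called in any of the 6 comparisons by edgeR or DESeq2, and 1, S100a9 for garlic against control, had an edgeR unadjusted p under 0.05. S100a8 and S100a9, the subunits of calprotectin in neutrophils and monocytes, had 80 and 142 reads over all libraries and were at 0 in both garlic libraries. S100a11, an annexin A1 partner, averaged 1.40 CPM. S100a7l2 and S100z had 0 reads in all 12 libraries. S100pbp, a nuclear protein that binds the family member S100P in human cells and is itself no S100 protein, averaged 55.3 CPM and had a log2 fold change of -0.25 ± 0.21 for diabetes against control.

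The receptor and partner genes of S100 proteins had medians near those of all genes. Of 29 listed genes 28 were tested, and 0 were called in any of the 6 comparisons by edgeR, with 3, 5 and 4 at an unadjusted p under 0.05 for diabetes against control, curcumin against diabetes and garlic against diabetes, where 12.3%, 17.2% and 10.9% of all genes were. DESeq2 called 3 for curcumin against diabetes, Kcnk9, Atp2a2 and Gap43, where 1.55% of all genes were called higher and 2.66% lower, and 0 in the other 5 comparisons. The medians of the list were -0.10, 0.08 and 0.16 there, against -0.07, 0.07 and 0.07 over all genes. Anxa2, which binds S100a10, had 14.1 ± 6.02 CPM in curcumin, 9.09 ± 0.12 in garlic, 19.1 ± 17.0 in diabetes and 15.3 ± 3.47 in control libraries, with 44.2 CPM in diabetes replicate 4. Ahnak, a large scaffold bound by the same complex, had 33.6 ± 12.3 CPM in curcumin and 25.5 ± 15.8 in diabetes libraries. Cacybp, the partner of S100a6, had 83.2 ± 21.7 CPM in curcumin and 130 ± 14.3 in diabetes libraries, a log2 fold change of -0.64 ± 0.23 that did not pass (edgeR adjusted p 0.178). Fgf1, the growth factor released with S100a13, had 114 ± 22.4 CPM in curcumin, 99.1 ± 13.4 in garlic, 88.8 ± 15.2 in diabetes and 87.8 ± 23.3 in control libraries. Ager, the receptor RAGE, was low, at 1.17 ± 1.02 CPM in curcumin, 1.14 ± 0.17 in garlic, 2.35 ± 1.40 in diabetes and 1.98 ± 0.37 in control libraries. Ryr2, the calcium release channel bound by S100a1 in heart, had 130 ± 70.0 CPM in curcumin and 81.0 ± 25.3 in diabetes libraries, a log2 fold change of 0.69 ± 0.30 (edgeR adjusted p 0.260).

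The genes whose levels across the 12 libraries were most like each S100 gene were found by Pearson correlation of log2 CPM among 10187 genes of at least 10 CPM. For S100a1 they were Ndufs8 (r = 0.98), Sdhb (0.98) and Ech1 (0.98), which encode mitochondrial proteins of respiratory complexes I and II and of fatty acid oxidation. For S100a13 they were Iscu, Mrpl15 and Nhp2, with r from 0.97 to 0.98. For S100a16 they were Ngdn, Taldo1 and Psmd7, and for S100b they were Coq9, Tst and Lxn. For S100a6 they were Nxn, Ddah2 and Cd151, with r from 0.91 to 0.94, and for S100a10 they were Elof1, Chmp2a and Btg1, with r of 0.93. The libraries share groups, depth and the length trend, so these values describe likeness across 12 libraries and nothing of shared control.

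Among themselves, S100a16 and S100b were most alike, with r = 0.93 over 12 libraries and 0.95 once each group's mean had been removed. S100a1 and S100b had 0.79 over all libraries and 0.95 within groups. S100a1 and its neighbour S100a13 had 0.67 over all libraries and 0.47 within groups. Over all libraries S100b and S100a6 were the least alike of the 15 pairs, with 0.50, and within groups S100a13 and S100a10 were, with 0.089. These correlations are descriptions, and the pairs share libraries.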

How the data were processed

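Hypothalamus RNA was extracted with Trizol and sequenced from a stranded poly-A library kit as paired reads, per the labels' protocols. The authors deposited raw read counts per gene in 1 table; featureCounts, FastQC and GRCm39 are named in the submitters' processing notes. No source used here gives the aligner, annotation or strand setting. Groups came from sample titles, and 0 columns were left unused. Symbols were found for 65.7% of 78334 IDs, carrying 97.8% of counts. Totals were 12950017 to 30271706 per library, and 66 library pairs each differed by more than sampling noise (chi-square per degree of freedom at least 20.0).

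Genes were filtered by filterByExpr (25562 left), scaled by TMM and fitted over all 12 libraries with edgeR 4.0.16 (glmQLFit, glmQLFTest; R 4.3.3), 6 contrasts, with Benjamini-Hochberg adjustment over all genes and a threshold of 0.05. SE is that of the log2 fold change. CPM uses TMM-scaled totals; log2 CPM has a prior count of 2. Transcript lengths are from GENCODE M21 and promoters from RefSeq. The length trend was removed with lowess offsets (span 0.3) within libraries. The script was tested on simulated data. Alternatives used limma 3.58.1 and DESeq2 1.42.0. The 6 genes, all family genes, 6 chosen partners and the 3 most alike genes per member were named by rule; members and lists were chosen with earlier results of these data known.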

Additional observations from a re-analysis of the deposited data

Results flagged for a closer look

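Among the 4 diabetes libraries a single library lay far from the other 3, by Dixon's gap test, for 7 of 33 values tested, not all independent; chance alone does this in about 1 in 20 groups. S100a3 had 1.94 CPM in diabetes replicate 1 and 0 reads in the other 3. S100a8 had 2.27 CPM in diabetes replicate 4 and also 0 reads in the other 3, so for both genes any reads in 1 library alone would meet this test. Anxa2 had 44.2 CPM in diabetes replicate 4. Ager had 4.44 CPM in diabetes replicate 3. In diabetes replicate 4 the summed markers were 881 CPM for anterior pituitary, 1473 CPM for posterior and intermediate pituitary with folliculostellate cells, and 1755 CPM for blood. The list for posterior and intermediate pituitary shares genes with the hypothalamic and tanycyte lists. None of the 6 genes described above met this test.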

How the results depend on the processing

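Of the 6 genes, 1 was called for diabetes against control, and under DESeq2 it was 2, under limma-voom with library weights 4, without a low-count filter 3, and 0 with the stricter filter, without both libraries that stood apart (diabetes replicate 4 and curcumin replicate 2), with a covariate for detected genes, with length correction and with the replicate block; leaving out each replicate gave 0 to 0. For curcumin against diabetes, 0 were called, but 1 with RLE scaling, 1 with upper-quartile scaling, 2 with DESeq2, 3 without the filter, 2 without both libraries and 1 with the covariate; leaving out a replicate gave 0 to 3. For garlic against diabetes, 0 were called, but 1 with DESeq2, 2 with limma-voom, 1 with the robust spread and 3 without the filter. Calls with a replicate left out are not given for it, because some of those fits held a single garlic library. Counts stayed at 0 in the other 3 comparisons under each alternative run. The number called over all genes moved too. For diabetes against control 4 genes were higher, against 475 with DESeq2, 724 with limma-voom and 359 without the filter. For curcumin against diabetes 22 genes were lower, against 111 with RLE, 104 with upper-quartile scaling, 670 with DESeq2, 651 without the filter, 821 without both libraries and 326 with the covariate. For garlic against diabetes 0 genes were lower, against 398 with DESeq2, 359 with limma-voom, 4 with the robust spread and 277 without the filter. The cause of these changes was not tested.

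Signs turned for values that were small in the main fit, all with edgeR, voom or DESeq2 adjusted p-values that missed the threshold. The turned values were not all small, and S100a13 reached -1.05 for curcumin against control. For S100a6, curcumin against control, log2 values became 0.026 (RLE), 0.026 (DESeq2), 0.012 (upper quartile), 0.0090 (stricter filter), 0.059 (without both libraries), 0.27 (length) and 0.0034 (replicate block). Under voom, curcumin against control gave S100a13 -1.05 and S100a10 0.19, and curcumin against garlic gave S100a13 -0.80 and S100a16 -0.070. Without both libraries, curcumin against control gave S100a13 -1.02 and S100a16 -0.38, and curcumin against garlic gave S100a13 -0.88, S100a16 -0.51 and S100b -0.24. The covariate gave S100a16 -0.22 for garlic against control. Length correction gave S100b 0.10 for curcumin against diabetes and S100a10 0.064 for curcumin against control. The replicate block gave S100a13 -0.051 for curcumin against control and S100a16 -0.015 for curcumin against garlic.

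Leaving out single replicates, curcumin against control ran from -0.32 to 0.10 for S100a10, -1.04 to 0.56 for S100a13, -0.40 to 0.46 for S100a16 and -0.17 to 0.076 for S100a6. Curcumin against garlic ran from -0.22 to 0.66 for S100a10, -0.90 to 0.72 for S100a13, -0.53 to 0.41 for S100a16 and -0.26 to 0.54 for S100b. Garlic against control ran from -0.40 to 0.075 for S100a1, -0.78 to 0.10 for S100a10, -0.43 to 0.065 for S100a13, -0.23 to 0.39 for S100a16 and -0.081 to 0.57 for S100b. S100b, curcumin against diabetes, ran from -0.58 to 0.026. Replicate numbers were not taken to pair the libraries, because not every same-number pair deviated together: over 15 pairs correlations ran from -0.34 to 0.56, with 8 above 0.1, all 6 pairs of number 1 among them, and the replicate block moved the number called only for diabetes against control, to 0.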
